A study of Mus musculus with 10 samples.

Results

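Hyaluronan synthesis, breakdown and binding were followed through 10 genes in mouse cardiac tissue: the synthases Has1, Has2 and Has3, the hyaluronidases Hyal1 and Hyal2, the precursor enzyme Ugdh, and the receptors and binding proteins Cd44, Hmmr, Tnfaip6 and Hapln1. Members were all probes other than controls whose gene name in the array files equals 1 of these symbols, which gave 19 of 56605 probes and 10 of 37325 gene names. Each of 10 total RNA samples was hybridised alone to a 1-colour Agilent array, 5 from mice labelled HIPK2 knockout and 5 from mice labelled wild type. HIPK2 is a nuclear kinase that acts on transcriptional regulators.

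All samples came from male mice and are labelled as cardiac tissue, with no part of the heart and no age given. The knockout was made in C57BL/6 embryos with CRISPR, which removed 56 bases from the second exon and shifted the reading frame, and carriers were crossed to wild-type C57BL/6 mice to expand the colony. The HIPK2-/- state is carried by every cell and rests on this allele alone. The labels name no treatment for either genotype. The labels number the samples but name no animal for each, and the p-values therefore cover only how these samples vary, part of which may be technical.

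Hyaluronan is a long unbranched sugar chain of the extracellular matrix, made at the plasma membrane from UDP-glucuronic acid and UDP-N-acetylglucosamine and pushed out of the cell as it grows. Hyaluronidases cut the chain, surface receptors such as Cd44 bind it and take it up, and link proteins and Tnfaip6 tie it to proteoglycans and to heavy chains from serum. In the heart it fills the jelly in which valves form, a step that needs Has2, and it accumulates where the adult heart is injured.

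Signal is given throughout as the log2 of the processed spot signal relative to the 75th percentile of its array, so 0 is the signal at that percentile. Levels of different genes are not set against each other, because probes differ in how well they bind. The 75th percentile itself was 286 to 460 intensity units on knockout arrays and 462 to 542 on wild-type arrays. Spots well above background, by the scanner software's own flag, made up 45.8% to 58.3% on knockout arrays and 55.7% to 60.4% on wild-type arrays. The lowest signal that still counted as well above background on an array, called its floor here, was -4.91, -3.76, -3.01, -3.60 and -4.56 on knockout replicates 1 to 5 and between -5.08 and -4.61 on wild-type arrays. The 3 Hipk2 probes did not separate the genotypes (differences of -0.01, 0.04 and 0.11, limma adjusted p from 0.473 to 0.96). None of them shares more than 6 bases in a row with the deleted stretch, so they do not check the deletion.

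Ugdh, Has1 and Tnfaip6 fell in knockout tissue, and the other 5 hyaluronan genes tested did not pass. Of the 10 genes, 8 had a probe well above background on at least 4 of 5 arrays of a genotype and were tested; Has3 and Hapln1 were not. In limma's moderated test over 20607 genes, with Benjamini-Hochberg adjustment and a threshold of 0.05, 3 of the 8 fell, 0 rose and 5 did not pass. At an unadjusted p under 0.05, 5 were lower and 0 higher. Over all genes, 4.94% were called, 2.97% lower and 1.97% higher. All 8 fitted differences, knockout minus wild type, were below 0, with a median of -0.71, against a median of 0.03 over all genes and 45.9% of all genes below 0. The filter lets a gene in through its brighter genotype alone, which is how Has1, Has2 and Tnfaip6 entered, so these counts describe the 8 genes and support nothing further. The 5 knockout values lay wholly below the 5 wild-type values for 3 of the 8 genes. For Has1, which is among them, no knockout value was above background, so that order is not established. Over all genes the groups did not overlap for 8.98%, and for 4.44% with knockout lower. The 3 calls fell to 0 when the 3 knockout arrays with the fewest spots above background, replicates 2, 3 and 4, were left out (3 at an unadjusted p under 0.05 in limma). They also fell to 0 with a score of atrial muscle genes as a covariate (5 at an unadjusted p under 0.05). Over all 20607 genes, the calls fell from 1017 to 13 without those arrays and to 57 with the atrial score.

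**Figure D1:**
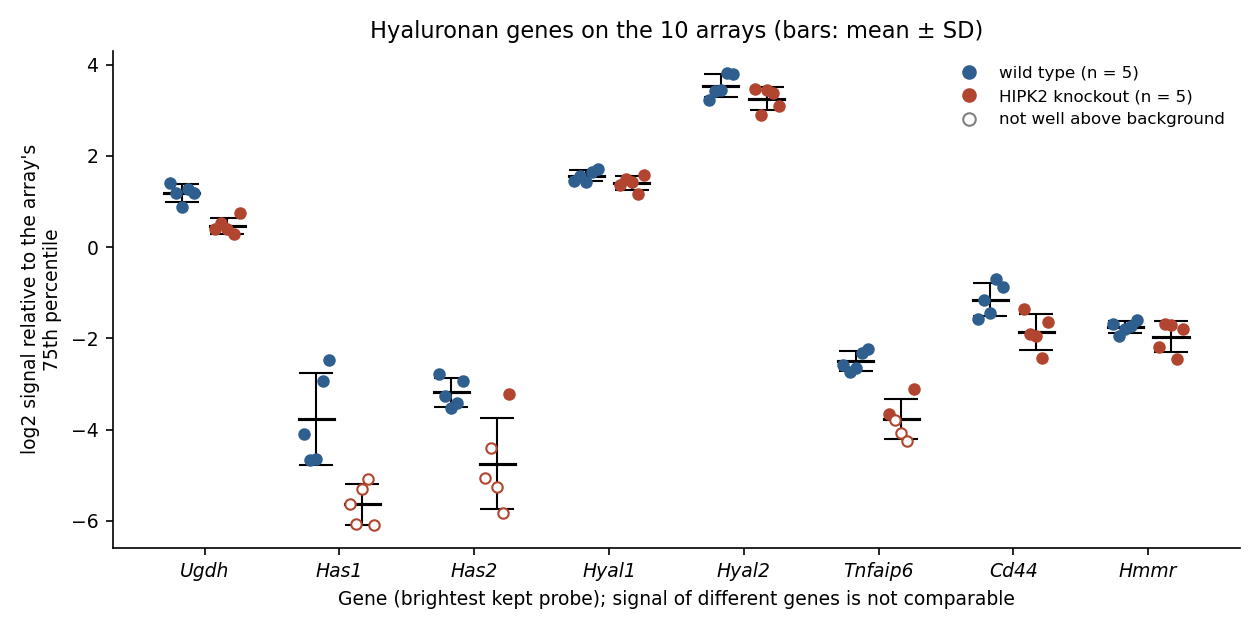
Relative log2 signal (vertical axis) of the brightest kept probe of each of the 8 tested hyaluronan genes on every array, wild type in blue and HIPK2 knockout in red, with bars for mean ± SD (n = 5 each) and open circles for spots not well above background. Ugdh, Has1 and Tnfaip6 show no overlap between genotypes, but all 5 knockout values of Has1 are open, so its order is not established.

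The sequences before the start sites of the 3 genes that fell are shown because these are the members that were called. RefSeq promoter records on GRCm38.p6 were found for 8 of the 10 genes, not for Has2 and Has3. Each line below gives the 250 bases before the annotated start, 5′ to 3′ on the gene's strand, with matches to searched motifs in capitals. Has1 lies at chr17:17855189-17855438 on the minus strand, Tnfaip6 at chr2:52037863-52038112 on the plus strand and Ugdh at chr5:65435843-65436092 on the minus strand.
Has1: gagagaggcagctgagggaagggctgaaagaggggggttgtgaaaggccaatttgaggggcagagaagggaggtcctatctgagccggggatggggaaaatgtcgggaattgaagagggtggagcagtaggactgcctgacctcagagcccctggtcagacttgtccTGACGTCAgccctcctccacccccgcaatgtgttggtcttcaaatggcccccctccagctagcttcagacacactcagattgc
Tnfaip6: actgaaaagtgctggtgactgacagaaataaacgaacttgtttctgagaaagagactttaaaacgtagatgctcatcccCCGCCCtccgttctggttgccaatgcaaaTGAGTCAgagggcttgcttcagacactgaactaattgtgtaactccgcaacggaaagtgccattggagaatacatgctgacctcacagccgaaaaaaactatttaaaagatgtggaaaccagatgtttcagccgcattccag
Ugdh: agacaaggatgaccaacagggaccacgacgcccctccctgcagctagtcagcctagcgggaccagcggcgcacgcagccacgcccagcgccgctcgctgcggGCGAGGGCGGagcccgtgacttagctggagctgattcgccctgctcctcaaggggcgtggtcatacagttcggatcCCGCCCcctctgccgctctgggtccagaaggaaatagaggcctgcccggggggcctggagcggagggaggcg

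Motifs were searched on both strands as plain letters: AP-1 as TGANTCA, the cyclic AMP response element as TGACGTCA, Sp1 as GGGCGG, Egr as GCGNGGGCG, the TATA box as TATAAA, and NF-kappaB, which is given by name alone. Has1 holds the cyclic AMP response element 83 to 76 bases before its start, which 1.55% of 32851 promoter windows hold. Tnfaip6 holds an AP-1 match 142 to 136 bases before its start, as 6.75% of windows do, and an Sp1 match at 171 to 166. Ugdh holds an Egr match at 148 to 140, as 4.7% of windows do, which overlaps an Sp1 match at 144 to 139, and a second Sp1 match at 72 to 67. Sp1 letters occur in 32.7% of windows, NF-kappaB letters in 0.356% and the TATA letters in 12.4%, and neither of the last 2 was matched in these 3 windows. The 3 genes share no motif that all of them hold. Of the members that did not pass, Hyal1 holds 2 Sp1 matches, Hyal2 and Hmmr hold 1 each, and Cd44 has 0 matches to the 6 motifs.

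Ugdh, which oxidises UDP-glucose to the UDP-glucuronic acid that every hyaluronan chain needs, fell in knockout tissue. Its brightest probe, on chromosome 5 at 65804760 to 65804819 of mm9, read 0.39, 0.52, 0.39, 0.28 and 0.74 on knockout replicates 1 to 5. Wild-type replicates 1 to 5 read 1.40, 1.19, 0.88, 1.27 and 1.19. The highest knockout sample, replicate 5, stayed below the lowest wild-type sample, replicate 3. The difference was -0.72 ± 0.12 (SE, n = 5 each; 95% interval -0.98 to -0.46), or 1.65-fold lower, with limma adjusted p = 0.0135. A second probe, at 65804532 to 65804591, gave 0.34 to 0.77 in knockout and 0.91 to 1.32 in wild type, a difference of -0.71 ± 0.11 (adjusted p = 0.0126 over 30692 kept probes). Both probes were well above background on all 10 arrays, far over each array's floor. Of the 11 kept hyaluronan probes 4 were called, these 2 among them, and all 4 were lower. Over all kept probes 4.44% were called, 2.76% lower and 1.69% higher. Within slide 2, which holds all 5 knockout arrays and wild-type replicates 3 to 5, the Ugdh difference was -0.65 (adjusted p = 0.0485). The call did not hold once the atrial score entered the fit (-0.76, adjusted p = 0.0622) and without knockout replicates 2, 3 and 4 (-0.62, adjusted p = 0.185).

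In these bulk samples, fewer cells of a type and less RNA per cell cannot be told apart. Lists of cell markers were therefore read beside the hyaluronan genes, as the log2 of their summed signal on the same scale. The 4 endothelial markers, all above background on every array, summed to 4.13 to 4.49 in knockout and 4.70 to 4.93 in wild type, and 1 of them, the endothelial growth factor receptor Kdr, fell (-0.80, adjusted p = 0.0147). The 5 fibroblast markers summed to 7.05 to 7.78 in knockout and 7.29 to 7.58 in wild type, and the 4 cardiomyocyte markers to 10.56 to 11.25 and 9.80 to 10.65, with no member of either list called. At an unadjusted p under 0.05, 3 of 4 cardiomyocyte markers were higher (Myh6, Tnnt2 and Actn2, by 0.65, 0.74 and 0.41). By the same measure 2 of 5 fibroblast markers were lower (Col1a1 and Pdgfra), as were 2 of 4 endothelial markers (Kdr and Cdh5) and 8 of 9 macrophage markers, whose values stand beside Cd44. Atrial markers (Myl7, Myl4 and Sln) ranged from 0.78 to 3.64 in knockout and from 0.38 to 6.67 in wild type, and fat markers from -2.95 to -0.37 and from -1.81 to 2.77. At an unadjusted p under 0.05 in limma, 3 of 4 fat markers were lower (Cfd, Car3 and Cidec, at -2.46, -2.29 and -1.73). So was 1 of 3 atrial markers (Myl4, -1.98), and 0 of either list were higher. The atrial and fat lists enter the fits only as covariates, each as the mean log2 of its markers and not as the sums above. That mean was -2.75 to 1.56 in knockout and -3.02 to 4.81 in wild type for atrial markers. For fat markers it was -5.04 to -2.96 and -4.17 to 0.29. The part of the other lists in the Ugdh, Has1 and Tnfaip6 differences was not tested. Over 13 lists with 56 markers, 45 were tested, 1 was lower, Kdr, and 0 were higher (17 lower and 5 higher at an unadjusted p under 0.05). Outside the lists above, these were the epicardial marker Wt1, lower (-0.35), and Myh11 of smooth muscle (0.50) and Cd3e of lymphocytes (0.72), both higher.

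Has1, a synthase that is little used in most resting tissues, was read well above background on 5 of 5 wild-type arrays and on 0 of 5 knockout arrays. Its probe on chromosome 17, at 17980413 to 17980472 of mm9, gave -4.09, -4.66, -4.66, -2.93 and -2.47 on wild-type replicates 1 to 5. Knockout replicates 1 to 5 gave -5.64, -6.07, -5.30, -5.09 and -6.10. Every knockout value lay below every wild-type value, and wild-type replicates 4 and 5 lay far above the other 3. The fitted difference was -1.88 ± 0.43 (SE; limma adjusted p = 0.0377), but as the knockout signal is not measured above background, the level was at least 1.16-fold lower. The floors of knockout replicates 2, 3 and 4 lay above the Has1 signal of wild-type replicates 1 to 3, so the order of those samples is not known. Over knockout replicates 1 and 5 alone, whose floors are close to those of wild type, the bound was at least 1.97-fold.

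The Has1 call held within slide 2 (-2.29, adjusted p = 0.0465) and without knockout replicate 3, wild-type replicate 2 or wild-type replicate 3 (adjusted p = 0.0499, 0.0447 and 0.0363). It was lost without any other array, with adjusted p of 0.071, 0.0806, 0.0545 and 0.0589 without knockout replicates 1, 2, 4 and 5, and 0.0526, 0.0825 and 0.063 without wild-type replicates 1, 4 and 5. The difference in those 7 fits was -2.02 to -1.56. With normexp, a background correction run here with an offset that raises dim signals, the difference was -0.19 (adjusted p = 0.429). The other Has1 probe, at 17984273 to 17984332, was above background on 0 of 10 arrays.

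Has2, the synthase that makes most hyaluronan in the developing heart, had a fitted difference of similar size that did not pass. The probe, on chromosome 15 at 56497356 to 56497415, read -2.79, -3.27, -3.54, -3.41 and -2.93 on wild-type replicates 1 to 5, well above background on each. Knockout replicates 1 to 4 read -5.05, -4.41, -5.26 and -5.83, none of them above background, while knockout replicate 5 read -3.22 and was. Replicate 5 thus lay inside the wild-type range and the other 4 read below it. The floor of knockout replicate 3, -3.01, lay above wild-type replicates 2 to 4, so its place against them is not known. The difference was -1.57 ± 0.41 (95% interval -2.46 to -0.67, limma adjusted p = 0.0529), and by the bound the knockout mean was at least 1.43-fold lower. Without knockout replicate 5 the difference was -1.95 (adjusted p = 0.0131), and with normexp it was -0.16 (adjusted p = 0.282). The Has2 probe shares a run of 16 bases with probes of 1 other gene, as 19.4% of all probes do.

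**Figure D2:**
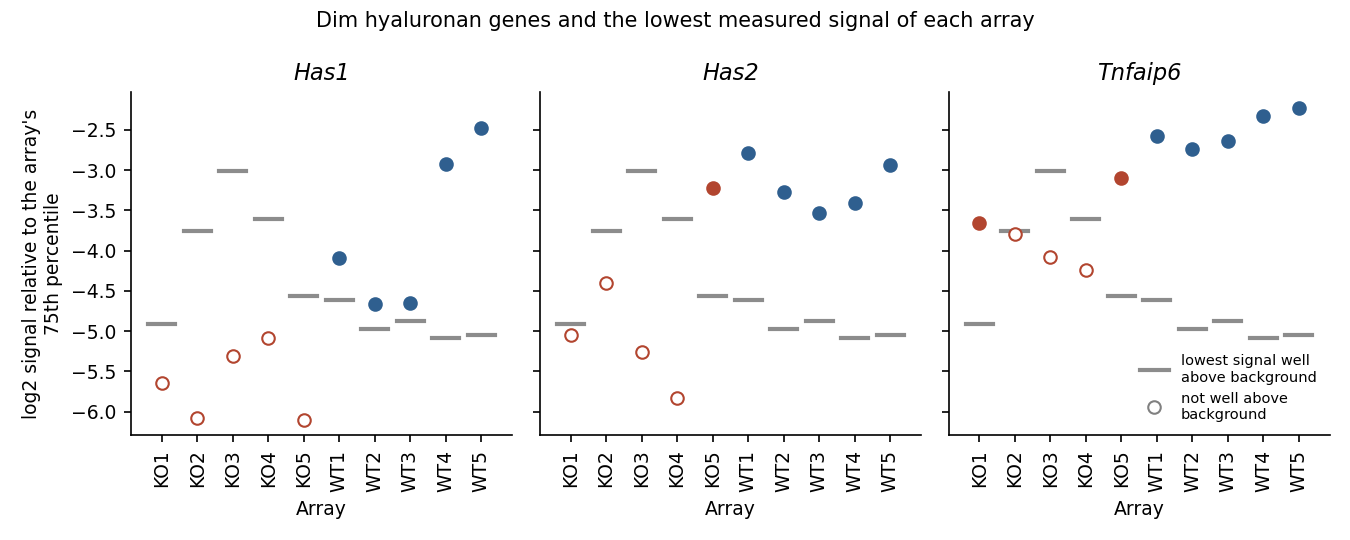
Relative log2 signal of Has1, Has2 and Tnfaip6 on each array (KO, HIPK2 knockout, red; WT, wild type, blue; numbers are replicates), with the grey bar marking the lowest signal well above background on that array. Knockout replicates 2, 3 and 4 have the highest bars, at -3.76, -3.01 and -3.60, and the open circles are values not well above background.

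Has3, the third synthase, was not measured in either genotype. Its probe, on chromosome 8 at 109406334 to 109406393, read -4.31, -5.75, -4.39, -5.87 and -5.17 on knockout replicates 1 to 5 and -7.03 to -5.08 in wild type. It was above background on knockout replicate 1 alone, so no fold is given.

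The hyaluronidases, which were read well above background on every array, did not pass the test. Hyal1 is the lysosomal enzyme that cuts hyaluronan into small fragments. Its brightest probe, on chromosome 9 at 107483891 to 107483950, gave 1.37, 1.49, 1.43, 1.16 and 1.58 in knockout and 1.45, 1.57, 1.44, 1.65 and 1.71 in wild type. The groups overlapped, and the difference of -0.16 ± 0.10 (95% interval -0.37 to 0.06) had a limma adjusted p of 0.318. The other Hyal1 probe, at 107481893 to 107481952, differed by -0.27 ± 0.14 (adjusted p = 0.24 over probes). Only that other probe carries an accession that matched the RefSeq table.

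Hyal2 is anchored at the cell surface, where it makes the first cuts in long chains. Its bright probe, at 107474949 to 107475008 on chromosome 9, gave 3.47, 2.90, 3.43, 3.37 and 3.10 in knockout and 3.22, 3.42, 3.45, 3.81 and 3.79 in wild type. Knockout replicates 2 and 5 lay below all wild-type samples and the other 3 within their range. The difference was -0.28 ± 0.15 (95% interval -0.61 to 0.05, limma adjusted p = 0.245). A dim probe also named Hyal2, at 107474225 to 107474284 and designed on another transcript record, was not kept, with signal above background on 2 of 5 knockout and 3 of 5 wild-type arrays. It read -3.92 to -2.53 in knockout and -5.51 to -4.02 in wild type, so every knockout value lay above every wild-type value. Above background were knockout replicates 1 and 5, at -3.69 and -2.53, and wild-type replicates 3, 4 and 5, at -4.02, -4.21 and -4.16. The probe did not pass the filter and its other values were not above background, so no fold is given. Like the Has2 probe, it shares a run of 16 bases with probes of 1 other gene.

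**Figure D3:**
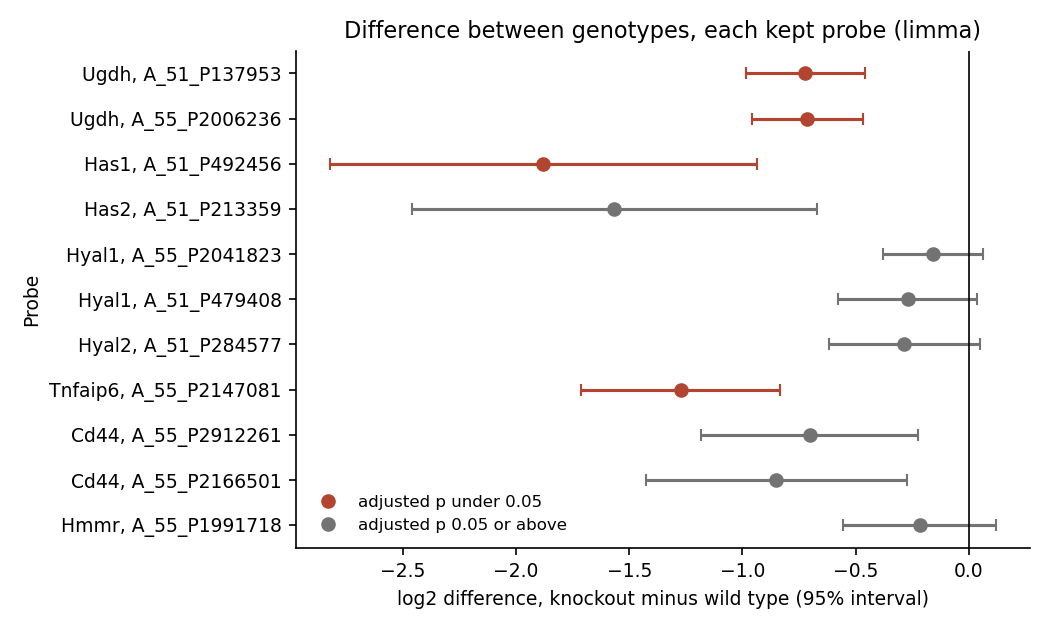
Difference in relative log2 signal, knockout minus wild type, with 95% intervals from limma for each of the 11 kept hyaluronan probes, red where the adjusted p over all kept probes is under 0.05. The 4 red probes are both of Ugdh, 1 of Has1 and 1 of Tnfaip6, and every point lies left of 0.

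Tnfaip6, a secreted protein induced in inflammation that moves heavy chains onto hyaluronan, fell in knockout tissue. On chromosome 2 at 51912073 to 51912132, its only probe read -2.58, -2.74, -2.64, -2.33 and -2.22 on wild-type replicates 1 to 5. Knockout replicates 1 to 5 read -3.66, -3.79, -4.08, -4.24 and -3.10, all below the wild-type samples. The difference was -1.27 ± 0.20 (SE; 95% interval -1.71 to -0.83, limma adjusted p = 0.0119). Only knockout replicates 1 and 5 were well above background, so the fold is a bound of at least 1.90 over all 5 arrays. Over knockout replicates 1 and 5 alone it was 1.84-fold lower. The call held with each array left out in turn (adjusted p up to 0.0373) and within slide 2 (-1.38, adjusted p = 0.0323). With normexp it held at a smaller size, -0.32 (adjusted p = 0.0415). It did not hold with the atrial score in the fit (-1.21, adjusted p = 0.0673) or without knockout replicates 2, 3 and 4 (-0.88, adjusted p = 0.143).

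Cd44, the main hyaluronan receptor of the cell surface and abundant on leukocytes, did not pass. Its brightest probe, on chromosome 2 at 102652758 to 102652817, gave -1.36, -1.91, -1.94, -2.43 and -1.65 in knockout and -1.58, -1.17, -1.45, -0.71 and -0.87 in wild type. Knockout replicate 1 lay above wild-type replicates 1 and 3, and the other 4 knockout samples below all wild-type samples. The difference was -0.70 ± 0.22 (95% interval -1.18 to -0.23, limma adjusted p = 0.0805). A dimmer probe at 102654278 to 102654337, above background on 3 of 5 knockout arrays, differed by -0.85 ± 0.26 (adjusted p = 0.0828). The 9 macrophage markers, all above background on every array, summed to 6.22 to 6.53 in knockout and 6.53 to 6.84 in wild type on the log2 scale. These ranges meet at 6.53 without overlapping. The mean log2 of the same 9 markers did overlap, at 1.43 to 1.97 in knockout and 1.94 to 2.21 in wild type. All 9 fitted differences were below 0, and 8 had an unadjusted p under 0.05, all but that of the receptor Csf1r, while 0 of 9 were called. Their part in the Cd44 difference was not tested.

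Some probes of Cd44 and Hmmr were dark on all 10 arrays. Another probe of the same gene was well above background on every array. The letters of the dark probes are shown for the stretches they were made to read. Probes differ in how well they bind, so a dark probe need not mark a stretch without RNA. The sequences are those of the array, 5′ to 3′, all on the minus strand of mm9. The Cd44 probe at chr2:102677971-102678030 lies 25.2 kb from the brightest Cd44 probe. The Hmmr probe at chr11:40519497-40519556 lies 4.17 kb from the bright one, and that at chr11:40535400-40536940 lies 20.1 kb away and spans 1541 bases of genome with its 60 bases.
Cd44: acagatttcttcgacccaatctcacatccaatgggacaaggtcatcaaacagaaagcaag
Hmmr, nearer: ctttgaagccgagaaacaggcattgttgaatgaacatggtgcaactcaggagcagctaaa
Hmmr, farther: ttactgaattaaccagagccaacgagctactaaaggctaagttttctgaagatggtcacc

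Hmmr, a hyaluronan receptor that also sits on the mitotic spindle of dividing cells, did not pass at its bright probe. That probe, on chromosome 11 at 40515324 to 40515383, gave -2.20, -1.69, -1.71, -2.45 and -1.79 in knockout and -1.68, -1.94, -1.80, -1.73 and -1.61 in wild type. Knockout replicates 1 and 4 were the lowest of all samples, and the other 3 lay within the wild-type range. The difference was -0.22 ± 0.15 (95% interval -0.55 to 0.12, limma adjusted p = 0.382). The other Hmmr probes were dark on all 10 arrays, so this difference rests on the bright probe alone. Of 5 markers of dividing cells, Mki67 was above background on all 10 arrays and Bub1 on none, and their summed log2 signal was -1.03 to -0.20 in knockout and -0.74 to -0.06 in wild type.

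Hapln1, the link protein that locks proteoglycans onto hyaluronan, was not measured in either genotype. Its probes, on chromosome 13 at 89750849 to 89750908 and 89751096 to 89751155, read -7.23 to -4.22 in knockout and -7.38 to -5.19 in wild type. Among these readings only knockout replicate 5, at the second probe, was above background. Counting 1 probe of Has1, 1 of Hapln1, 1 of Cd44 and the 2 of Hmmr, 5 member probes were dark on all 10 arrays. Values this dim have no order, and the floor of 4 of 5 knockout arrays lay above that of every wild-type array.

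Other genes of the pathway were read from a list of 40 by role, of which 28 were tested, 3 fell, 0 rose and 25 did not pass (8 lower and 2 higher at an unadjusted p under 0.05). Over all genes 4.94% were called, 2.97% lower and 1.97% higher. The median difference of the 28 was -0.12, with 19 below 0 and 9 above, against 0.03 over all genes. Tmem2, Itih2, Itih3 and Ptx3 passed the filter through wild type alone, so these counts describe the 28 genes and support nothing further. With normexp, a background correction described with Has1, 5 of the 28 fell and 1 rose, the heavy chain gene Itih3 (0.37, limma adjusted p = 0.0235). Itih3, named after its values were seen, was above background on 2 of 5 knockout and 4 of 5 wild-type arrays, and its difference without that correction was -0.12 (adjusted p = 0.833). The falls were in precursor supply and in the matrix that binds hyaluronan. Gfpt2, an enzyme of the first step of the hexosamine pathway, read -0.10, 0.10, -0.07, -0.58 and 0.14 in knockout and 1.27, 0.95, 0.65, 1.00 and 1.16 in wild type. The groups were well apart, with a difference of -1.11 ± 0.16 (2.16-fold lower, limma adjusted p = 0.0089). Uap1, which makes UDP-N-acetylglucosamine, read 2.57, 2.52, 2.31, 2.52 and 2.44 in knockout and 3.16, 2.92, 2.79, 3.02 and 2.98 in wild type. Here too every knockout sample was below every wild-type sample, by -0.50 ± 0.09 (1.42-fold, adjusted p = 0.0174).

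Versican, Vcan, a large proteoglycan that binds hyaluronan in the cardiac matrix, read -2.08, -1.75, -1.70, -2.45 and -1.37 in knockout and -0.81, -0.38, -1.06, -0.06 and -0.13 in wild type. The difference was -1.38 ± 0.24 (2.61-fold lower, limma adjusted p = 0.0159). Its other kept probes differed between themselves. The dimmer of them was above background on 5 of 5 wild-type and 0 of 5 knockout arrays, at least 1.12-fold lower, and the third probe differed by -0.27 ± 0.15 (adjusted p = 0.277). With each array left out in turn, Gfpt2, Uap1 and Vcan kept their calls in all 10 fits. Within slide 2 the differences were -1.04 for Gfpt2 (adjusted p = 0.0323), -0.46 for Uap1 (0.0537) and -1.45 for Vcan (0.0443). With the atrial score as a covariate Gfpt2 kept its call (-1.20, adjusted p = 0.0384), and Uap1 (-0.57, 0.0569) and Vcan (-1.18, 0.0808) did not. All 3 calls ended without knockout replicates 2, 3 and 4, and with the atrial and fat scores together. Without knockout replicates 2, 3 and 4 the differences of Gfpt2, Uap1 and Vcan were -0.99, -0.47 and -1.24 (adjusted p = 0.116, 0.19 and 0.174). With terms for slide and array row, which leave knockout replicate 1 alone against wild-type replicates 3 to 5, they were -1.04, -0.36 and -1.67. With the atrial and fat scores together they were -1.21, -0.61 and -1.21 (adjusted p = 0.116, 0.13 and 0.183).

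By role, precursor supply had 2 of 8 tested genes lower, where 2.97% of all genes were, and a median of -0.24. At an unadjusted p under 0.05 it had 4 lower and 1 higher, the hexokinase gene Hk1. The proteoglycans and link proteins had 1 of 2 tested genes lower, and 5 of the 7 listed were not tested. Breakdown had 0 of 5 called, receptors and uptake 0 of 7, and heavy chains and partners of Tnfaip6 0 of 6, each with 1 gene lower at an unadjusted p under 0.05 and receptors also with 1 higher. The smallest p in breakdown was that of Gusb, the lysosomal glucuronidase (-0.18 ± 0.08, limma adjusted p = 0.171). Among receptors it was Lyve1, found on lymphatic vessels and some macrophages (-0.53 ± 0.18, adjusted p = 0.102). Among heavy chains and partners it was Ptx3, a pentraxin that joins Tnfaip6 in hyaluronan matrices (adjusted p = 0.107), which was above background on 0 of 5 knockout and 4 of 5 wild-type arrays.

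**Figure D4:**
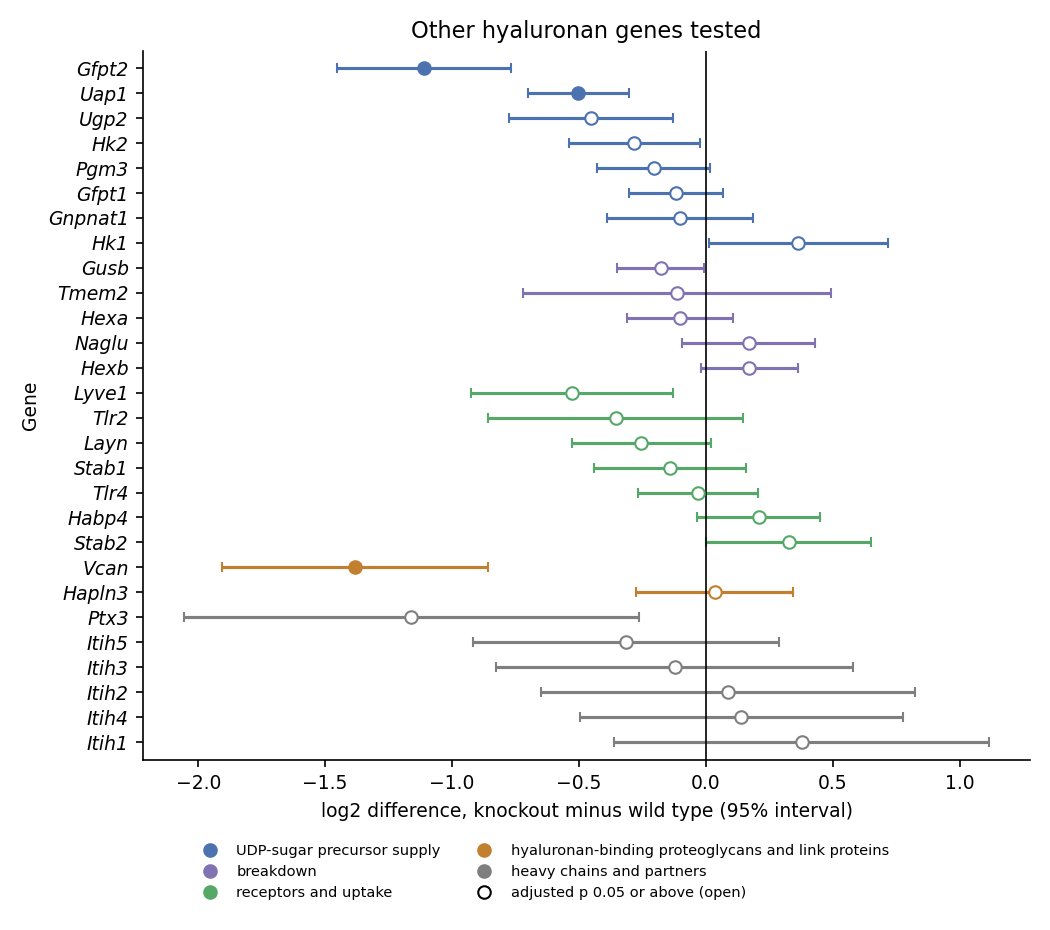
Difference in relative log2 signal, knockout minus wild type, with 95% intervals from limma for the 28 other hyaluronan genes that were tested, coloured by role and filled where the adjusted p is under 0.05. Gfpt2, Uap1 and Vcan are the 3 filled points, at -1.11, -0.50 and -1.38.

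With normexp, Ugdh (-0.71, limma adjusted p = 0.00341) and Gfpt2 (-0.997, adjusted p = 0.002) kept both size and call, while Has1 and Has2 moved to -0.19 and -0.16. Over all genes that correction also turned the balance of calls, from 60.2% lower to 28.4% lower. With slide and row of the array on its slide as terms, Ugdh stood at -0.72, Tnfaip6 at -1.26 and Has1 at -2.29. On slide 2 wild-type arrays lie in row 1 and knockout arrays in row 2, apart from knockout replicate 1 in row 1. Slide 1 holds only wild-type replicates 1 and 2. The difference in that fit therefore rests on knockout replicate 1 alone against wild-type replicates 3 to 5, and no p-value is given for it.

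**Figure D5:**
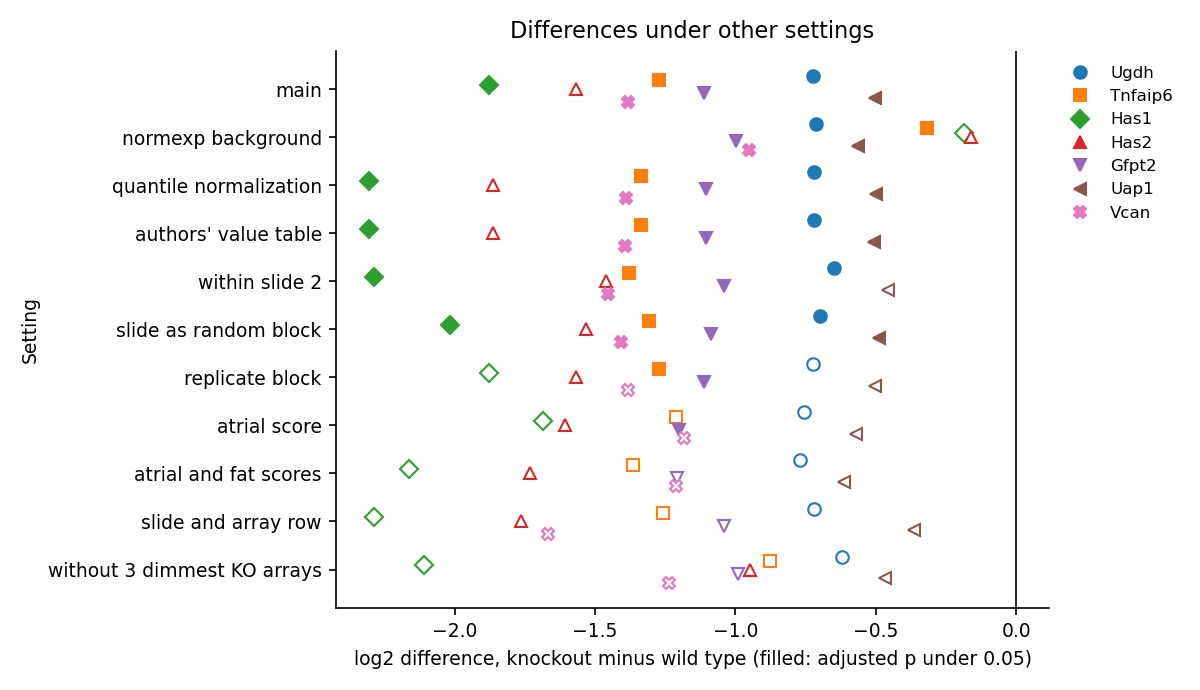
Difference in relative log2 signal, knockout minus wild type, of 4 members and 3 other hyaluronan genes under the main fit and 10 other settings, filled where the limma adjusted p is under 0.05 (KO, HIPK2 knockout). All points lie below 0, Ugdh stays between -0.62 and -0.77, and Has1 moves from -1.88 to -0.19 with normexp. The points with slide and array row rest on knockout replicate 1 alone against wild-type replicates 3 to 5.

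The genes whose signal was most like a member's were sought over the 10 arrays after each genotype mean was subtracted, among 12333 named genes above background on all arrays, for the 5 members measured in both genotypes. They are the highest of very many correlations, over arrays that share slides, tissue make-up and signal strength, and are given as a description. Ugdh went most closely with Mtcl1, Man2a1 and Cetn4 (Pearson r of 0.932, 0.922 and 0.917). Hyal1 went with Vcan, Farp1 and Dclk1 (0.952, 0.937 and 0.937), and Hyal2 with the heat shock genes Hspa1b and Dnaja4 and with Ddx27 (0.970, 0.956 and 0.951). Cd44 went with the leukocyte genes Lair1, Stx11 and Plek (0.949, 0.930 and 0.913). Hmmr went with Tbrg3, Rmi2 and Phxr4 (0.992, 0.967 and 0.958).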

How the data were processed

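Total RNA of 10 cardiac samples, 5 per genotype, was measured on 1-colour arrays, and groups were read from the sample titles. The deposited scanner files hold linear spot intensity from Agilent Feature Extraction 10.7.1.1, per the submitters' processing notes, with background already subtracted in the processed signal, per the file headers. The authors also deposited a table of log2 values, used as an alternative. From the processed intensity, log2 values were taken and each array's log2 75th percentile subtracted. Control and outlier spots were dropped. Probes well above background on at least 4 of 5 arrays of a genotype were kept (30692 of 56605), and the brightest kept probe stood for a gene. An accession match to RefSeq named 32994 probes, and the other 23611 kept the name in the file. Positions are on mm9 as in the files. The genotype difference was fitted with limma 3.58.1 under R 4.3.3, with Benjamini-Hochberg adjustment and no covariate, and the steps were tested on simulated data. Where 3 or fewer knockout arrays were above background, the fold is a lower bound: the wild-type mean against the knockout mean with each dim value raised to its array's floor. Alternatives were normexp with offset 50, quantile normalization, the deposited log2 table, other filters, the mean of a gene's probes, slide as a term, the replicate block, atrial and fat scores, and each array left out. The slide and row terms, and the fit without 3 knockout arrays, were added after seeing the data. The members and gene lists were chosen with earlier results of these data known. Named genes are every member, other hyaluronan genes past the threshold, or the smallest p in a role where none passed, and the 3 genes most like each well-measured member. Arrays correlated at 0.974 to 0.996 over genes, and no pair was identical. The number of arrays limits the precision.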

Additional observations from a re-analysis of the deposited data

Results flagged for a closer look

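Among 28 groups of 5 arrays, 1 held a sample far from the others: knockout replicate 5 at the second Ugdh probe, whose relative log2 signal of 0.77 stood apart from the next knockout value, 0.45. The gap was 0.729 of the group's range, against Dixon's critical value of 0.71. Chance alone marks about 1 group in 20, and the value still lay below all wild-type values.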

How the results depend on the processing

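Wherever they were tested, the 8 members and Gfpt2, Uap1 and Vcan kept their sign under all alternatives. The 3 member genes called (4 probes, 3 other hyaluronan genes, 1017 of all genes) became 1 (1, 1, 173) without a filter, where the median of all genes moved from 0.03 to 0.24. They became 1 (2 probes) with probes above background on all 10 arrays, which leaves out Has1, Has2 and Tnfaip6, and 2 probes and 458 of all genes within slide 2. With normexp 6 other hyaluronan genes (5 lower; Itih3 higher, by 0.37) and 3100 of all genes were called. With the atrial score the counts were 0 (0, 1, 57), with atrial and fat scores 0 (0, 0, 8), and without 3 knockout arrays 0 (0, 0, 13). At an unadjusted p under 0.05 in limma these 3 fits gave 5, 4 and 3 member genes, 7, 5 and 4 member probes, and 6, 6 and 5 other hyaluronan genes. No counts are given with slide and row, where the genotype difference rests on 1 knockout array. With the replicate block the counts were 1 (2, 1, 164), the member being Tnfaip6. Samples of the same number correlated at -0.11 to 0.05 after group means were removed, so the numbers do not pair them. Leaving out 1 array gave 2 to 3 member genes, 3 to 4 probes, 3 to 3 other genes and 282 to 940 of all genes. The cause of these changes was not tested, and signal near background limits what can be said of Has1, Has2, Has3, Hapln1 and Tnfaip6.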
